A study of Mus musculus with 4 samples.

Results

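Expression of 10 genes of the CC chemokine family was followed across 4 arrays of mouse keratinocytes, the epithelial cells of the epidermis. The members are Ccl2, Ccl3, Ccl4, Ccl6, Ccl7, Ccl8, Ccl9, Ccl12, Ccl20 and Ccl27a, which are 10 of 30137 genes or targets on the array. They were taken by their names on the array, and these names were selected on the genotype differences and calcium responses measured on the same 4 arrays. Every difference of a member given here is therefore a description of those values and no independent test of them.

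The study asked how loss of Pla2g2f, the gene of a secreted phospholipase A2, alters keratinocytes before and after they are made to differentiate by added calcium. Cells of newborn C57BL/6 mice, either Pla2g2f−/− or Pla2g2f+/+, were isolated with 0.05% collagenase A and grown for 3 days. They were then kept for 48 h with 1 mM CaCl2 or without added CaCl2. The 4 groups are −/− cells with calcium, −/− cells without calcium, +/+ cells with calcium and +/+ cells without calcium, and each is 1 one-colour array of material pooled from 6 mice per genotype. An effect of genotype and one of the cell pool it came from cannot be told apart in this design. With no replicate arrays, no difference between groups could be tested.

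Chemokines are small secreted proteins that guide the movement of leukocytes through receptors coupled to G proteins, and CC chemokines carry a pair of adjacent cysteines near their amino end. Ccl2, Ccl7, Ccl8 and Ccl12 are known as monocyte chemoattractants, Ccl3 and Ccl4 as macrophage inflammatory proteins, and Ccl6 and Ccl9 as chemokines of rodent myeloid cells. Ccl20 and Ccl27a are the members best known as products of keratinocytes, and they draw cells that carry the receptors Ccr6 and Ccr10.

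Of the 10 members, 8 lie on chromosome 11 in 2 groups of neighbours by the mm9 positions of their probes. The probes of Ccl2, Ccl7, Ccl12 and Ccl8 span 79.5 kb starting with Ccl2 at chr11:81850650-81850709, all on the plus strand. The probes of Ccl9, Ccl6, Ccl3 and Ccl4 span 89.9 kb, with 1458 kb between the groups. Ccl9 is at chr11:83388223-83388282, Ccl6 at chr11:83401997-83402056 and Ccl3 at chr11:83461358-83461417 on the minus strand, and Ccl4 at chr11:83478052-83478111 on the plus strand. Ccl12 is at chr11:81916764-81916823 and Ccl8 at chr11:81930108-81930167. The probe of Ccl20 is at chr1:83115682-83115741 and the Ccl27a probe that was read is at chr4:41716345-41716404. The exon or UTR under each 60-base probe was not analysed here.

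The 100 bases before the annotated start are shown for the 5 chromosome 11 members with a RefSeq promoter entry, which include the members with the largest genotype differences, and for Ccl20, which was not well above background on any array. The sequences are from RefSeq (GRCm38.p6), 5′ to 3′ on the strand of the gene. Capitals mark the letters TATAAA on that strand, or a match of the NF-kappaB site on either strand.
Ccl8, plus strand, chr11:82115085-82115184: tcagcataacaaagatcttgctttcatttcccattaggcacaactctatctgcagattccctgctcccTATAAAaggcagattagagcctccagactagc
Ccl12, plus strand, chr11:82101745-82101844: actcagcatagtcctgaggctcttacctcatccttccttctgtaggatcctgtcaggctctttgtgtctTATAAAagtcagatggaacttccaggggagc
Ccl3, minus strand, chr11:83649379-83649478: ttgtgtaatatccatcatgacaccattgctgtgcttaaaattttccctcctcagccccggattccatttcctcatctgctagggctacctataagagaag
Ccl6, minus strand, chr11:83593088-83593187: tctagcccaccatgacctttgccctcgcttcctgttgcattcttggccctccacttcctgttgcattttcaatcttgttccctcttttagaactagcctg
Ccl9, minus strand, chr11:83578637-83578736: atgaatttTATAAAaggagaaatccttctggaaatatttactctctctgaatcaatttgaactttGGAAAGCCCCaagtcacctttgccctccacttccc
Ccl20, plus strand, chr1:83116666-83116765: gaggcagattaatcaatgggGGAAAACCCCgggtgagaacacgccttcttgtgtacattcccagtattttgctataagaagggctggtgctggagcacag

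Promoter entries were found for 7 of 10 members, and the motifs were searched in the 250 bases before each start. TATAAA on the strand of the gene began 32 bases before the start of Ccl8, 31 before that of Ccl12 and 92 before that of Ccl9, and 7.59% of 32851 promoters held it. The NF-kappaB site, bound by the transcription factor that drives many chemokine genes, was matched in the promoters of Ccl20 and Ccl9, beginning 80 and 35 bases before the start, and in 7.25% of all promoters. The AP-1 site TGANTCA, searched on both strands, was matched in Ccl9 and in 1 of the 3 entries of Ccl27a, and in 6.75% of all promoters. No searched motif overlapped another in the bases shown. These matches describe letters only.

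Levels are log2 of the scanner signal minus log2 of the array's 75th percentile, so that 0 is the 75th percentile and 1 unit is 2-fold. The ± beside a difference is the error that the scanner software assigns to the spots, which leaves out any spread between cultures. For measured differences of members it lay between 0.20 and 0.37. A probe not well above background gives only a limit, and a difference against it is given as "at least". That limit holds for the processing used here and leaves out the scanner error of the dim spot. The 75th percentile lay between 2638 and 3299 intensity units, and 67.0% to 68.6% of 39426 probes were well above background. Pla2g2f was well above background on all arrays, at −3.53 and −3.78 in −/− cells with and without calcium, against −3.04 and −3.35 in +/+ cells with and without calcium. Which part of the gene is missing in −/− cells is not given in the sources used here, so this probe does not check the labels. Of 12 keratinocyte markers, 11 were well above background on every array, with Krt14, a keratin of basal cells, between 6.06 and 6.59.

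Of the 10 members, 7 were well above background on all 4 arrays, 2 on some and 1 on none. Ccl4 and Ccl12 were well above background in −/− cells with and without calcium and in neither culture of +/+ cells. Ccl20 was not well above background in any group. The plot of levels by array shows that Ccl3, Ccl8, Ccl9 and Ccl12 were higher on both −/− arrays than on either +/+ array, while Ccl7 and Ccl27a were nearly level.

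**Figure D1:**
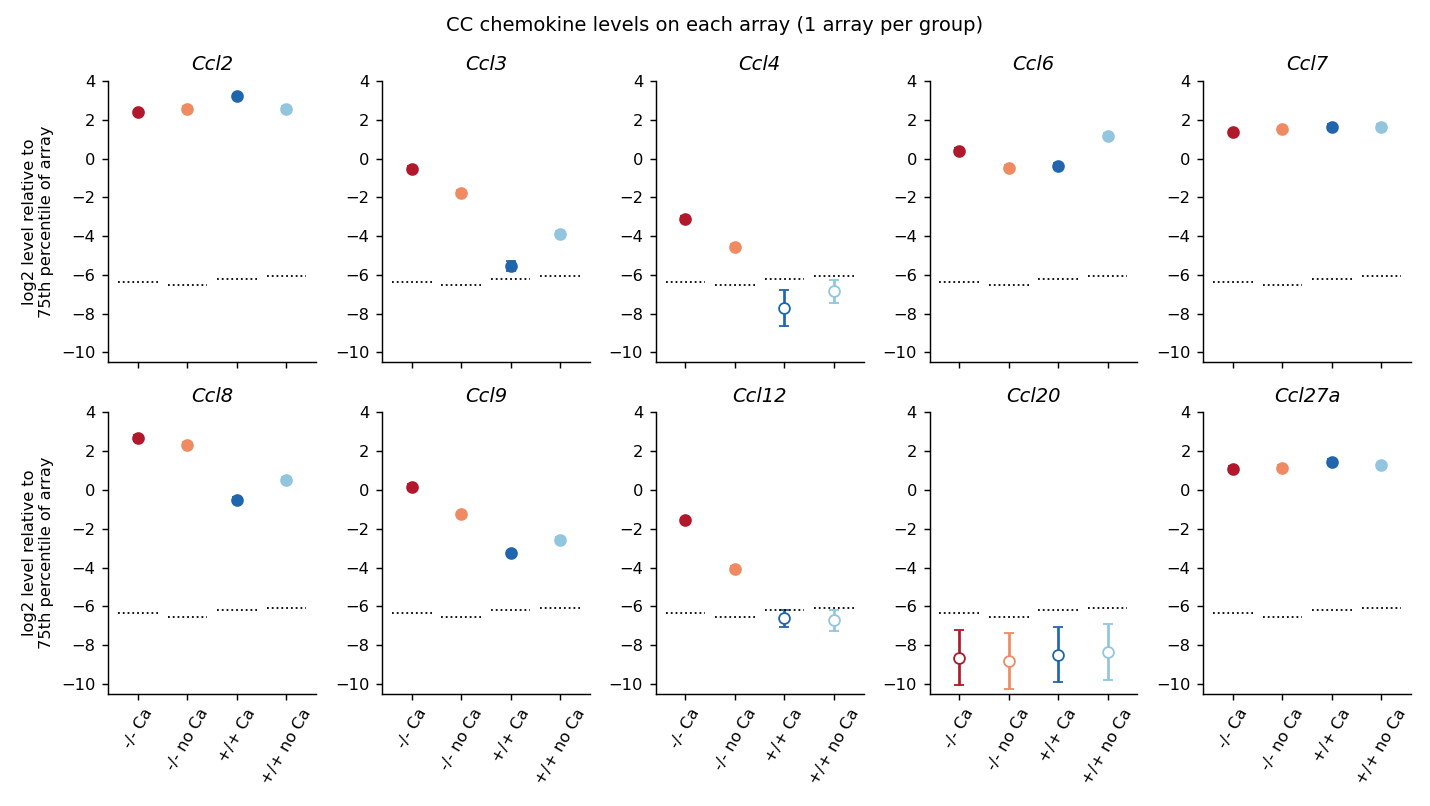
Log2 level of each member relative to the 75th percentile of its array (y axis) on the arrays of −/− cells with and without calcium and +/+ cells with and without calcium (x axis), with scanner error bars. Filled points are well above background, open points are not, and dotted lines mark the lowest level that was well above background on each array. Of the members well above background on all arrays, Ccl3 spans the widest range, between −0.53 and −5.56, and Ccl7 the narrowest, between 1.35 and 1.64.

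Among the monocyte chemoattractants, Ccl8 was higher in −/− cells and Ccl2 and Ccl7 differed little by genotype without calcium. Ccl8, which in mice acts through the receptor Ccr8, had a level of 2.67 and 2.34 in −/− cells with and without calcium, against −0.52 and 0.53 in +/+ cells with and without calcium. Both −/− arrays were above both +/+ arrays. The genotype difference was 3.19 ± 0.20 with calcium (9.13-fold) and 1.81 ± 0.20 without calcium (3.50-fold).

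Ccl12, a mouse ligand of Ccr2, had a level of −1.57 and −4.06 in −/− cells with and without calcium. In +/+ cells its signals of −6.61 and −6.72 were not well above background. It was therefore at least 25.0-fold higher in −/− than in +/+ cells with calcium and at least 4.02-fold higher without calcium. With normexp background correction, an alternative setting, the limit without calcium was 0.98 log2, just under 2-fold. Within −/− cells, Ccl12 was 5.62-fold higher with calcium (2.49 ± 0.21), the largest calcium response measured for a member.

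Ccl2, the main chemoattractant of Ccr2-bearing monocytes, was read from 10 spots on each array. Its level was 2.38 ± 0.08 and 2.55 ± 0.06 in −/− cells with and without calcium, against 3.21 ± 0.06 and 2.55 ± 0.07 in +/+ cells with and without calcium (SD over 10 spots). The +/+ array with calcium was the high one, and the other 3 arrays lay within 0.18 of each other. With calcium Ccl2 was 1.78-fold lower in −/− than in +/+ cells (−0.83 ± 0.20), and without calcium the difference was 0.01 ± 0.20. Ccl7, another ligand of Ccr2, had a level of 1.35 and 1.501 in −/− cells with and without calcium, against 1.63 and 1.64 in +/+ cells with and without calcium. None of its 4 simple differences was larger than 0.28 in size.

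Ccl3 and Ccl4, whose probes are neighbours on chromosome 11, were both higher in −/− cells. Ccl3 had a level of −0.53 and −1.78 in −/− cells with and without calcium, against −5.56 and −3.91 in +/+ cells with and without calcium. The arrays of the genotypes did not overlap, and the order with respect to calcium was opposite in the genotypes. The genotype difference was 5.02 ± 0.30 with calcium (32.6-fold), the largest measured on both arrays (Ccl12 is a bound), and 2.12 ± 0.22 without calcium (4.36-fold). Its low level in +/+ cells with calcium, 58.1 intensity units, lay near the limit of detection. Over the alternative settings, leaving out macrophage-marker scaling, the genotype difference of Ccl3 with calcium ranged from 3.73 to 5.62.

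Ccl4 had a level of −3.11 and −4.55 in −/− cells with and without calcium. Its signals of −7.70 and −6.85 in +/+ cells with and without calcium were not well above background. It was at least 8.56-fold higher in −/− than in +/+ cells with calcium and at least 2.87-fold higher without calcium. With normexp background correction the limit without calcium was 0.58 log2, under 2-fold. In −/− cells Ccl4 was 2.70-fold higher with calcium than without (1.43 ± 0.22).

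Ccl9, a ligand of Ccr1, had a level of 0.17 and −1.26 in −/− cells with and without calcium, against −3.27 and −2.57 in +/+ cells with and without calcium. Again both −/− arrays were above both +/+ arrays. The genotype difference was 3.44 ± 0.21 with calcium (10.8-fold) and 1.32 ± 0.21 without calcium (2.49-fold). Ccl6, which lies beside Ccl9 and is also a ligand of Ccr1, did not share this order. Its level was 0.40 and −0.48 in −/− cells with and without calcium, against −0.37 and 1.18 in +/+ cells with and without calcium. The genotypes overlapped: Ccl6 was 1.70-fold higher in −/− cells with calcium (0.77 ± 0.20) and 3.17-fold lower in −/− cells without calcium (−1.67 ± 0.20).

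The keratinocyte-borne chemokines were nearly level across the arrays or not well above background. Ccl27a had a level of 1.09 and 1.15 in −/− cells with and without calcium, against 1.45 and 1.27 in +/+ cells with and without calcium, and its genotype difference was −0.36 ± 0.20 with calcium and −0.12 ± 0.20 without. These values come from the brightest of its 3 probes, which shares 48 bases with another and also matches transcripts of near-identical copies of the gene, so they cannot be assigned to Ccl27a alone. Its probe elsewhere in the gene lay at −2.90 and −2.41 in −/− cells with and without calcium, against −2.92 and −2.48 in +/+ cells with and without calcium. By that probe the level was lower with calcium in both genotypes.

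In the genotype comparison with calcium, 9 of 10 members could be compared. Of these, 5 were at least 2-fold higher in −/− cells, 2 of them as bounds, and 0 were lower. Over all 21454 genes compared, 6.55% passed 2-fold as higher and 3.04% as lower. The median difference was 3.10 for the members, which is the lower bound of Ccl4, and −0.16 for all genes. When arrays were scaled to macrophage markers 1 member was higher and 4 were lower, with Ccl12 there as a bound under 2-fold. Under that scaling 0.0373% of all genes were higher and 99.1% lower. Without calcium 5 of 9 members were at least 2-fold higher, 2 of them as bounds, and Ccl6 was lower. Among all 21237 genes compared, 4.65% were higher and 4.29% lower. The medians were 1.32 for the members and −0.18 for all genes. Under macrophage-marker scaling 0 members were higher and 4 lower without calcium, against 0.0942% and 96.8% of all genes.

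**Figure D2:**
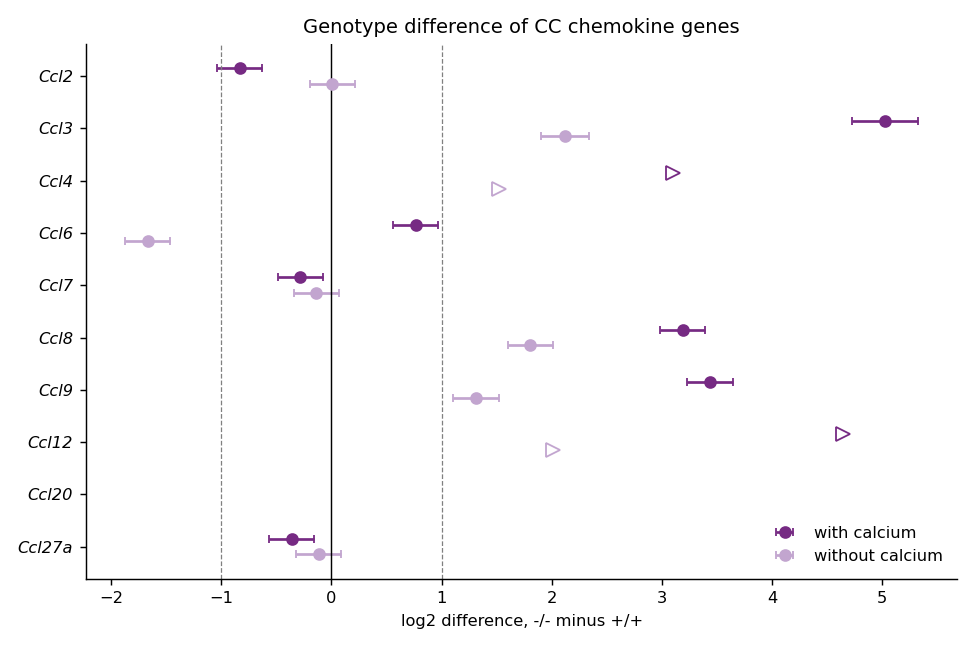
Log2 genotype difference, −/− minus +/+ (x axis), of each member (y axis) with calcium and without calcium. Points are measured differences with scanner error, triangles are lower bounds for Ccl4 and Ccl12, and dashed lines mark 2-fold. Ccl3, Ccl8, Ccl9, Ccl4 and Ccl12 lie above 2-fold in both conditions, and relative to macrophage markers Ccl8 and Ccl9 change sign in both and Ccl3 without calcium. With normexp background correction the bounds of Ccl4 and Ccl12 without calcium fall under 2-fold.

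In −/− cells 4 of 9 members were at least 2-fold higher with calcium than without: Ccl12 (2.49 ± 0.21), Ccl4 (1.43 ± 0.22), Ccl9 (1.42 ± 0.20) and Ccl3 (1.25 ± 0.20). Scaled to macrophage markers, only Ccl12 remained so, with 0.835% of all genes higher there. Ccl6 was just under 2-fold at 0.88 ± 0.20, Ccl8 was at 0.34 ± 0.20, and no member was at least 2-fold lower. Of 21321 genes compared, 2.99% passed 2-fold as higher and 0.6% as lower, and the medians were 0.88 for the members and −0.03 for all genes.

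In +/+ cells 0 of 7 members were at least 2-fold higher with calcium and 3 were lower: Ccl3 (−1.65 ± 0.31, 3.14-fold), Ccl6 (−1.55 ± 0.20, 2.93-fold) and Ccl8 (−1.05 ± 0.20, 2.07-fold). Under scaling to macrophage markers or to the median keratinocyte marker, none of these was 2-fold lower, and with normexp background correction Ccl3 was at −0.92. Ccl9 was at −0.70 ± 0.21, but at 0.15 under scaling to the median keratinocyte marker, and Ccl2 at 0.66 ± 0.20. On both +/+ arrays that marker was Col17a1, itself at −0.85 with calcium. With these markers centred per gene Ccl9 was at −0.71. Of 21020 genes compared, 2.46% were higher and 0.999% lower, with medians of −0.70 for the members and −0.07 for all genes.

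The calcium response of −/− cells minus that of +/+ cells could be computed for the 7 members well above background on all arrays. It was 2.90 ± 0.37 for Ccl3, 2.43 ± 0.29 for Ccl6, 2.12 ± 0.29 for Ccl9 and 1.38 ± 0.29 for Ccl8. These 4 passed 2-fold as higher, and 0 passed it as lower, against 1.91% and 0.627% of 19139 genes. Relative to macrophage markers the differences were 1.41, 0.94, 0.63 and −0.11, in the same order. Ccl2 lay on the other side of 0 at −0.84 ± 0.29, and Ccl7 and Ccl27a were at −0.15 ± 0.29 and −0.24 ± 0.29. The medians were 1.38 for the members and 0.02 for all genes.

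**Figure D3:**
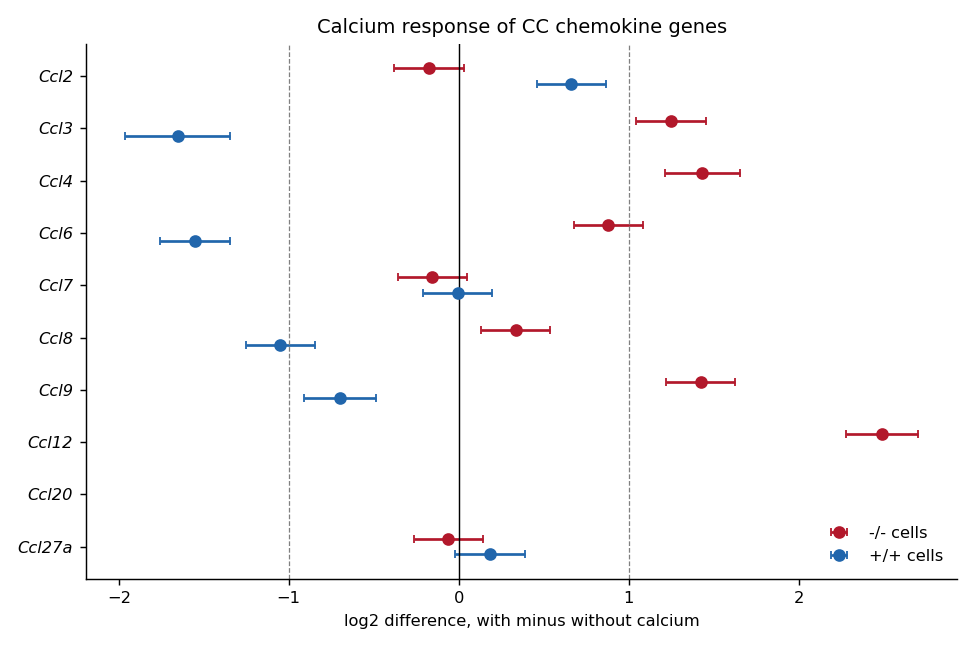
Log2 difference with minus without calcium (x axis) of each member (y axis) in −/− cells and in +/+ cells, with scanner error bars and dashed lines at 2-fold. Ccl3, Ccl6, Ccl8 and Ccl9 lie right of 0 in −/− cells and left of 0 in +/+ cells, whereas relative to macrophage markers Ccl8 is left of 0 in both. Scaled to the median keratinocyte marker, which is Col17a1 on the +/+ arrays, Ccl9 is right of 0 in both. Ccl4 and Ccl12 have no value in +/+ cells.

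By the shape of their level over the 4 arrays, with each gene centred on its own mean, the nearest of 14399 genes were named for the 4 members that span at least 2-fold and are well above background throughout. The nearest to Ccl3 were Cd300c2, Wdfy4 and Adgre1, the F4/80 antigen of macrophages, at distances of 0.64 to 0.72. The nearest to Ccl9 were Marco, a scavenger receptor of macrophages, at 0.30, then Wfdc17 and Tlr13. The nearest to Ccl8 were Fyb, Irf8, a transcription factor of myeloid cells, and Gbp11, at 0.16 to 0.18. Ccl6 was nearest to Psg19 at 0.11, then to Tnfsf11, the ligand RANKL, and Il19. With 4 arrays such a likeness is a description.

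Markers of macrophages were higher in −/− than in +/+ cells in both conditions, as were Ccl3, Ccl8 and Ccl9 but not Ccl6. All 12 macrophage markers on the list were well above background in −/− cells, and 11 in +/+ cells, where Cd163 was not. Their summed linear level was 36.6 and 22.7 times the 75th percentile in −/− cells with and without calcium, against 3.995 and 4.82 times in +/+ cells with and without calcium. With calcium 12 of 12 were at least 2-fold higher in −/− cells, with a median of 3.55, and without calcium 11 of 12, with a median of 2.16. The largest with calcium were Cd5l, a secreted macrophage protein (5.06), the mannose receptor Mrc1 (4.56), and the complement genes C1qa (4.43) and C1qc (4.42). In −/− cells Marco (1.54) and Mrc1 (1.24) were at least 2-fold higher with calcium, and in +/+ cells no macrophage marker differed 2-fold with calcium. In bulk samples fewer cells of a type and less RNA per cell cannot be told apart.

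Relative to the macrophage markers, the genotype difference with calcium was 1.25 for Ccl3, −0.59 for Ccl8 and −0.34 for Ccl9, and without calcium it was −0.16, −0.48 and −0.97 for the same genes. For Ccl6 it was −3.01 with calcium and −3.95 without. This scaling was chosen after the data were seen. Measured against these markers, Ccl3 with calcium passed 2-fold as higher in −/− cells. Ccl12 with calcium had a lower bound of 0.86, so whether it passed is not known, and Ccl4 in both conditions and Ccl12 without calcium gave no value.

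Markers of other cells gave mixed values. Of 9 mast cell markers 8 were at least 2-fold higher in −/− cells in both conditions, with medians of 3.74 with calcium and 3.16 without, and Ms4a2 was not well above background on any array. Their summed level was 11.49 and 11.55 times the 75th percentile in −/− cells with and without calcium, against 1.69 and 1.53 times in +/+ cells with and without calcium. The largest was the protease gene Mcpt4, at 5.52 with calcium and 4.67 without. Of 8 fibroblast markers 5 were at least 2-fold higher with calcium and 1 without, with summed levels of 195 and 181 in −/− cells with and without calcium, against 103 and 119.8 in +/+ cells with and without calcium.

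Of the 10 Langerhans and dendritic markers, Cd207, the langerin of Langerhans cells, was not well above background on any array. The dendritic integrin Itgax was well above background only in −/− cells with calcium. The summed level of this list was 2.51 and 1.49 in −/− cells with and without calcium, against 2.50 and 1.77 in +/+ cells with and without calcium. In −/− cells with calcium its highest entry was Epcam, at a log2 level of 0.75. The median genotype difference of the list, with bounds included, was −0.68 with calcium and −0.08 without. With calcium 5 of 7 markers compared were below 0. The neutrophil, T cell and endothelial lists had medians between −0.49 and −0.29 in the genotype comparisons, and the keratinocyte list had −0.37 with calcium and −0.20 without. Single genes of these lists passed 2-fold. S100a8 (−1.82 with calcium and −2.43 without) and S100a9 (−1.65 and −1.23) of the neutrophil list were lower in −/− cells. In the endothelial list Vwf was at 1.26 with calcium and Emcn at −1.28 without. In the keratinocyte list Krtdap was at 1.45 without calcium. The part of other cell types in the chemokine differences was not tested.

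**Figure D4:**
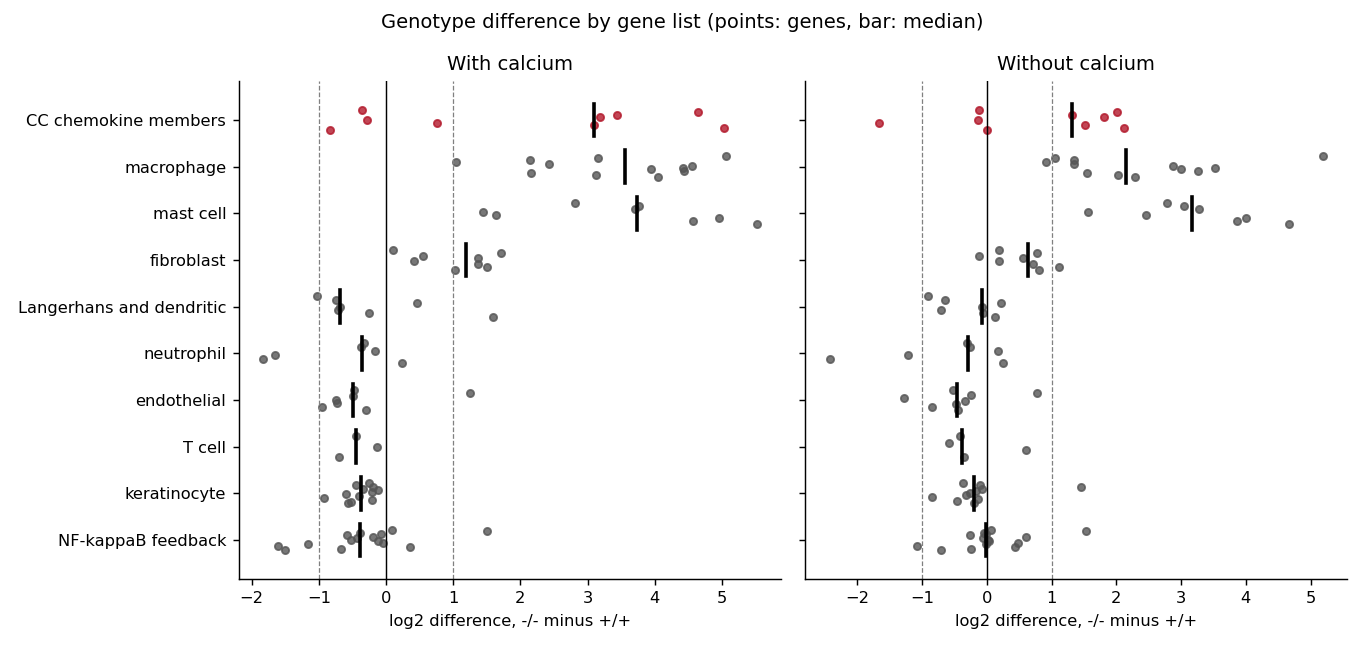
Log2 genotype difference, −/− minus +/+ (x axis), with calcium (left) and without calcium (right), for the genes of each list (y axis), with bounds included. Each point is a gene, the bar is the median of the list and dashed lines mark 2-fold. The medians of the chemokine members, macrophage and mast cell lists lie above 1 in both panels. Relative to macrophage markers the median member, with bounds included, is below 0 in both, at −0.97 without calcium. With calcium it falls on the lower bound of Ccl4, at −0.68, which is a limit and no measured value.

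Of the other CC chemokines, 1 of 7 compared was at least 2-fold higher in −/− cells with calcium, and without calcium 1 of 6 was higher and 1 lower. Of 14 such genes listed, 10 were on the array, and Ccl17, Ccl22 and Ccl24 were not well above background on any array. Ccl11, the eosinophil attractant whose probe lies between those of Ccl7 and Ccl12, was at least 6.15-fold higher in −/− than in +/+ cells with calcium and at least 6.55-fold higher without. Ccl5, a T cell attractant whose probe lies just before that of Ccl9, differed by 0.23 with calcium and 0.07 without. Ccl1, whose probe lies beyond that of Ccl8, was at 0.22 with calcium and at least 2.20-fold lower in −/− cells without calcium.

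Among the CC chemokine receptor genes, Ccr1, Ccr2, Ccr4, Ccr10 and Ccr1l1 were not well above background on any array. They include known receptors of Ccl2, Ccl6, Ccl7, Ccl9 and Ccl27a. Ccr8, the receptor of Ccl8, was well above background in all groups and differed by −0.16 with calcium and −0.21 without. Ccr6, the receptor of Ccl20, was well above background only in +/+ cells without calcium. Ccr7, the receptor that leads dendritic cells to lymph nodes, was at least 2.04-fold lower in −/− cells with calcium and differed by −0.91 without calcium.

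Among 4 decoy receptors, which bind chemokines without the usual signal, Ackr1 was higher in −/− cells by 2.58 with calcium and 2.09 without. Ackr4 was not well above background in −/− cells and was at least 4.50-fold lower there with calcium and at least 4.21-fold lower without. Ackr2, which takes up inflammatory CC chemokines, was 1.06 higher with calcium in −/− cells and −0.12 in +/+ cells.

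The list of 15 NF-kappaB genes includes the subunit gene Rela and is not limited to feedback genes. All were well above background on every array, and their median genotype difference was −0.39 with calcium, against −0.16 for all genes. With calcium 1 was at least 2-fold higher in −/− cells (Traf1, 1.496) and 3 were lower: Nfkbiz (−1.60), Nfkbia (−1.50), the inhibitor that holds NF-kappaB in the cytoplasm, and Tnfaip3 (−1.17), which ends NF-kappaB signalling. Without calcium Traf1 (1.54) was higher and Nfkbiz (−1.08) was lower, with Nfkbia at −0.71 and Tnfaip3 at −0.02. The calcium response of Tnfaip3 was 0.30 in −/− cells and 1.44 in +/+ cells.

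Of 18 cytokine genes known to induce chemokines, 2 were at least 2-fold higher and 4 lower in −/− cells with calcium, of 13 compared. Il1f6, the gene of interleukin-36 alpha, was not well above background in −/− cells and was at least 40.9-fold lower there with calcium. In +/+ cells it was 25.0-fold higher with calcium than without. Il33, an alarmin of epithelial cells, was lower in −/− cells by −2.18 both with and without calcium, and Il18 was higher by 1.996 with calcium and 1.64 without. Il1b was not well above background on any array, and Tnf differed by −0.58 with calcium and −0.29 without.

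**Figure D5:**
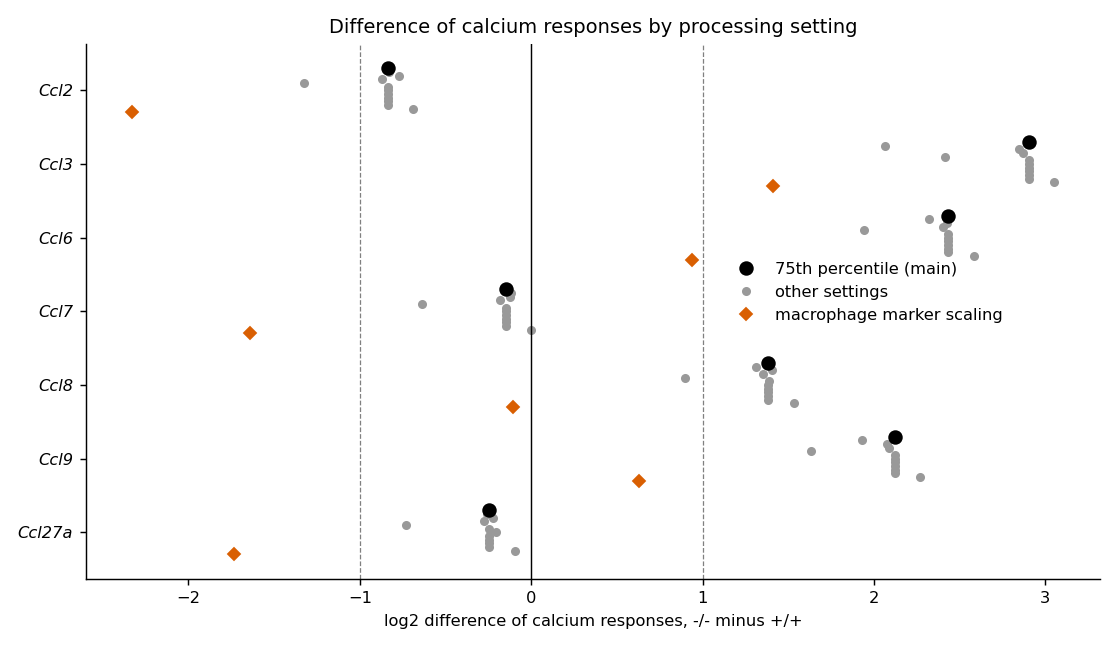
Log2 difference of the calcium responses, −/− minus +/+ (x axis), of the 7 members that could be compared (y axis), under the main scaling to the 75th percentile, under the other settings and under scaling to macrophage markers. Ccl3, Ccl6 and Ccl9 stay above 0 under all settings run, and Ccl8 falls to −0.11 under macrophage-marker scaling.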

How the data were processed

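Gene expression was measured on 4 one-colour Agilent arrays, 1 for each combination of genotype and calcium, from 200 ng of total RNA. The deposited signal of each spot is a background-subtracted intensity from Agilent Feature Extraction 11.5.1.1, per the file headers. The deposited value table is a ratio, which the authors obtained by dividing each signal by its array's 75th percentile. The largest relative deviation from this quotient was 0.000583 over 44397 spots, and the table's column medians were 0.0645, 0.0612, 0.0623 and 0.0660 in −/− cells with and without calcium and +/+ cells with and without calcium. The flags for background, saturation and outliers are those of the deposited files.

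Control spots and the 105 to 116 outlier spots per array were left out, and 0 spots were saturated. Levels were log2 signals minus log2 of the 75th percentile of the 43020 spots that are no controls. Spots of 1 probe were averaged, and a gene was read from its brightest probe. Of 39426 probes 27507 took the symbol of their RefSeq transcript, and 11919 kept the symbol of the array design. The median SD of log2 signal over repeat spots was 0.06 on each array. Comparisons needed 1 array of the pair with a signal well above background, and the difference of responses needed all 4. Where the other array was dim, its value was the higher of its own level and the lowest level well above background there, between −6.54 and −6.07. Genes were counted at 2-fold, and with 1 array per group no test was run.

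The 13 gene lists have 139 entries, of which 6 were not found. The members and lists were chosen with earlier results of these data known. Genes named were all members, the 4 of a list furthest from 0 in a comparison, receptors of described members, genes needed to describe detection, and the 3 nearest profiles of a member. Adgre1, Ccl5, Tnf, Krt14 and Pla2g2f are named beside these. Alternatives were normexp background correction (offset 50), quantile scaling, scaling to probes well above background, scaling to keratinocyte markers, the authors' table, the mean of a gene's probes, a filter on every array, no filter, a 3-fold threshold and keeping outlier spots. Scaling to markers centred per gene, for keratinocytes and for macrophages, was added after seeing the data. One receptor gene of the lists is not reported here. The 2-fold calls were tested on simulated data, with larger changes planted in genes well above background on all arrays. The simulated noise was smaller than the scanner error of a difference, so such changes were easy to find. Limits for dim probes and the choice of scaling were not part of that simulation. Scripts ran in R 4.3.3 (limma 3.58.1) and Python 3.11.15 (matplotlib 3.10.9, numpy 2.4.6, pandas 2.3.3).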

Additional observations from a re-analysis of the deposited data

Results flagged for a closer look

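The calcium responses of 3 members were higher with calcium in −/− cells and lower with calcium in +/+ cells, with the 95% interval of the scanner error clear of 0 in each case. For Ccl9 this order depends on the scaling, since its response in +/+ cells was 0.15 under scaling to the median keratinocyte marker. On both +/+ arrays that marker was Col17a1, itself at −0.85 with calcium. With these markers centred per gene Ccl9 was at −0.71. Relative to macrophage markers the response of Ccl6 in −/− cells was 0.05 and that of Ccl9 in +/+ cells was −0.04. In the main setting Ccl8 was also higher with calcium in −/− cells and lower in +/+ cells. The interval of its response in −/− cells, −0.06 to 0.74, includes 0. The response of −/− cells minus that of +/+ cells was 2.90 log2 for Ccl3, 2.43 for Ccl6 and 2.12 for Ccl9. Each of these responses rests on 1 array per condition, and the difference between genotypes was not tested. Relative to macrophage markers the same differences were 1.41, 0.94 and 0.63. Among the macrophage markers themselves the largest such differences were 2.10 for Marco, 1.76 for Adgre1 and 1.69 for Mrc1.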

How the results depend on the processing

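Leaving out macrophage-marker scaling, 447 member values were recomputed under 11 alternatives, and all 238 values that were at least 2-fold kept their sign, 230 of them still at 2-fold or more. Much of this was fixed in advance, since the 3-fold threshold alters only counts and the filters leave measured differences unchanged. The members at 2-fold have 1 probe each, so averaging probes changes nothing, and the authors' table holds the same quotient. Only background correction and rescaling could move a measured value. The count of members higher with calcium in −/− cells was 1 (main 4) at 3-fold and 5 under both keratinocyte-marker scalings. Of all genes 1.17% were higher at 3-fold, 6.68% under scaling to the median keratinocyte marker and 3.93% with centred markers. In +/+ cells 2 were higher (main 0) and 0 lower (main 3) under scaling to the median keratinocyte marker, and 1 was lower at 3-fold. Of all genes 19.8% were higher and 0.119% lower under that scaling, and 0.214% were lower at 3-fold. Without calcium 3 members were higher in −/− cells (main 5) with normexp correction, with the filter on every array and at 3-fold, and 0 were lower (main 1) under keratinocyte-marker scaling. With calcium 3 were higher (main 5) with the filter on every array, which drops the bounds, and 6 under both keratinocyte-marker scalings. For the difference of responses 1 was lower (main 0) under keratinocyte-marker scaling, and the higher count (main 4) was 3 there and at 3-fold and 6 with no filter, which adds dim members.

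Under macrophage-marker scaling, 1 member was higher and 1 lower with calcium in −/− cells, and 1 higher and 0 lower in +/+ cells. The counts higher in −/− cells were 1 with and 0 without calcium, with 4 lower in each, and for the difference of responses 1 was higher and 3 lower. Of all genes under this scaling, 0.835% were higher and 24.6% lower with calcium in −/− cells, against 9.41% and 0.167% in +/+ cells. By genotype 0.0373% were higher and 99.1% lower with calcium, and 0.0942% and 96.8% without. For the difference of responses 0.0104% were higher and 90.3% lower. Among members at least 2-fold different, the sign turned with calcium for Ccl8 (−0.59) and Ccl9 (−0.34), without calcium for Ccl3 (−0.16), Ccl8 (−0.48) and Ccl9 (−0.97), and in the difference of responses for Ccl8 (−0.11). This scaling moved the median of all genes to −3.94 with calcium and −2.47 without (main −0.16 and −0.18), so member values under it are relative to those markers.

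Among all genes at least 2-fold different without calcium, 52% were higher in −/− cells, 74.5% under quantile scaling, 77.7% with normexp correction, 97.2% under keratinocyte-marker scaling and 90.0% with these markers centred, but 48.6% with the mean of a gene's probes and 31.0% with no filter. In the difference of responses 75.3% were higher, against 50.4%, 63.2%, 9.84%, 87.3%, 78.3% and 80.6% under the same settings, and in the +/+ calcium response 71.2%, against 44.7% with no filter. Keratinocyte-marker scaling subtracts the median marker, Col17a1 in +/+ and Trp63 in −/− cells. This moved the median gene to 0.77 in the +/+ calcium response and 0.57 in the genotype difference without calcium. The share of higher genes with calcium was 68.3%, against 85.4% so scaled and 95.3% with centred markers. The cause of other shifts was not tested. Depth is 1 array per group, so no paired analysis was possible. Ccl4 and Ccl12 in +/+ cells and Ccl20 in all groups lie under the detection limit, so their true differences are not known.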
